A study of Mus musculus with 6 samples.

Results

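The proteasome genes of LSK cells, the marrow fraction without lineage markers and with Sca1 and cKit on its surface, which contains hematopoietic stem cells and multipotent progenitors, were compared between Tifab knockout and Tifab wild type. The members are the genes whose symbol begins with Psm, a letter from a to g and a digit, taken from probe sets that carry a single gene symbol, with the probe set of the highest mean over all arrays standing for a gene. This gave 49 of 22180 measured genes, from 52 probe sets. Of these 49, 47 encode parts of the proteasome, its activators, its inhibitor or its assembly chaperones. The other 2, Psmc3ip, which encodes a partner of the meiotic recombinases, and Psme3ip1, which encodes a protein that binds the activator PA28 gamma, share only the letters. Psma4 is not a member, because both of its probe sets carry a second symbol.

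Both groups were LSK cells sorted from marrow of recipient mice engrafted with donor marrow, which was Tifab+/+ in one group and Tifab-/- in the other, as the series' design text has it. The treatment protocol can also be read as saying that sorted LSK cells were themselves injected, and the labels do not settle this. The recipients were lethally irradiated Boy/J mice in both groups, and Tifab encodes a relative of TIFA, an adaptor of the TRAF6 pathway. Each group has 3 mice with 1 array per mouse, and the labels give 3 months as an age without saying at which point in the experiment. A knockout in the donor marrow reaches all blood cells, whereas the stroma of the host is of its own genotype, and whether the sort separated donor from host cells is not stated in the labels. The design text places the time after engraftment and ahead of marrow failure, which no value here examines. Tifab itself read 4.99, 5.37 and 5.53 in the arrays labelled wild type and 5.21, 5.12 and 5.26 in those labelled knockout, a log2 difference of -0.10 ± 0.18 (SE, adjusted p = 0.885 in limma). The groups overlapped, so this probe set, whose position relative to the deleted part was not examined, gives no check of the labels, and wild type and knockout below mean arrays so labelled. The values are the authors' log2 probe set values from an Affymetrix MoGene 2.0 ST array. Of the markers that define the sorted fraction, Kit lay at 9.59 in the wild type and 9.52 in the knockout. Cd34, which is in the list for this fraction but is not part of its definition, lay at 10.42 and 10.55. Of the 8 measured genes of the list for this fraction, Meis1 and Hlf had groups apart in opposite directions and an unadjusted p under 0.05. Their log2 differences were 0.39 ± 0.13 (SE) and -0.33 ± 0.13 (SE). This was 25% of the list at that p, against 10.3% of all genes, and 16.1% of all genes had groups apart. The Sca1 gene Ly6a was not analysed here.

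The proteasome degrades proteins tagged with ubiquitin. Its core particle, the 20S, is a barrel of an outer alpha ring and an inner beta ring on each side, and 3 of the beta subunits carry the protease sites. Caps sit on the ends of the barrel: the 19S regulator, with a ring of ATPases that unfold the substrate and a set of non-ATPase subunits that bind and strip ubiquitin, or the ring activator PA28. Interferon induces replacements for the 3 catalytic subunits, namely Psmb8 for Psmb5, Psmb9 for Psmb6 and Psmb10 for Psmb7, which form the immunoproteasome, together with both PA28 subunits, Psme1 and Psme2. The immunoproteasome cuts peptides that suit MHC class I molecules, and blood cells carry it also without an interferon stimulus.

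The interferon-induced genes are controlled through short promoter elements that bind STAT and IRF factors, so promoter sequences are shown for the pair of induced genes with the largest differences below, Psme1 and Psmb10, and for the pair that lies in the MHC locus, Psmb8 and Psmb9. The stretches run from 150 bases before to 25 bases after the RefSeq gene start in GRCm38.p6 and are written 5' to 3' on the strand of the gene. Capitals mark any match, on either strand, to the core of the interferon-stimulated response element (ISRE, the letters GAAA, any 2 bases and GAAA) or to the gamma-activated site (GAS, TTCNNNGAA).
Psme1, chr14:55578344-55578518, plus strand: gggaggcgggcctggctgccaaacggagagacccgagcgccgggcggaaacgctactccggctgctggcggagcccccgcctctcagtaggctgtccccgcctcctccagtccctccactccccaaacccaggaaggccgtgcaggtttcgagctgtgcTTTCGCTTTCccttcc
Psmb10, chr8:105938368-105938542, minus strand: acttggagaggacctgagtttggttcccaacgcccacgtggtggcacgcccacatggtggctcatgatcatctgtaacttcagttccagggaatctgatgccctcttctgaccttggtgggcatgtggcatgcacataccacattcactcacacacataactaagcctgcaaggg
Psmb8, chr17:34198045-34198219, plus strand: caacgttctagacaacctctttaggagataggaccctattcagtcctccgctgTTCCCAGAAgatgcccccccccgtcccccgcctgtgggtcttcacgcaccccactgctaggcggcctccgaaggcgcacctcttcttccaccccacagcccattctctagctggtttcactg
Psmb9, chr17:34187306-34187480, minus strand: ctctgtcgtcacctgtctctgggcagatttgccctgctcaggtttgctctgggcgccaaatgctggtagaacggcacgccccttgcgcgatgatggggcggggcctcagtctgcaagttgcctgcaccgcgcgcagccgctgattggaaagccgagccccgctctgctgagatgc
The Psme1 stretch holds an ISRE core on its minus strand and the Psmb8 stretch a GAS, while the stretches of Psmb10 and Psmb9 hold neither set of letters, which says nothing about the binding of a factor there.

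Promoter windows of 300 bases, 250 before and 50 after the start, were found for 41 of the 49 genes, with 45 windows in all. The ISRE core occurred in 5 of these 45 windows, or 11.1%, against 3.44% of all 32841 windows of the table. The GAS letters occurred in 3 of 45, or 6.67%, against 8.3% of all. Psme2, the induced gene whose stretch is not shown above, had neither the ISRE core nor the GAS letters in its windows. The core of the antioxidant response element (TGANNNNGC), through which NRF1 raises proteasome genes when the proteasome is blocked, occurred in 57.8% of the members' windows and 41.3% of all, and the NF-kB core (GGG, any 5 bases and CC) in 57.8% and 50.8%. The 5 windows with an ISRE core belong to Psme1, the assembly chaperone genes Psmg4 and Psmd9, the core gene Psmb3 and the ubiquitin receptor gene Psmd4. Each match is shown with 10 bases on either side, in capitals.
Psme1, chr14:55578493-55578522, plus strand: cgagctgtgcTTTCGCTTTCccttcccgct
Psmg4, chr13:34162969-34162998, plus strand: gcgcgcatctGAAAGTGAAAgagcgttccg
Psmd9, chr5:123228021-123228050, plus strand: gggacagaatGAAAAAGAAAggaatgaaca
Psmb3, chr11:97703261-97703290, plus strand: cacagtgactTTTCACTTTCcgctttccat
Psmd4, chr3:95042675-95042704, minus strand: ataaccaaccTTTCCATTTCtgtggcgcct
These genes did not share a direction: the log2 differences, knockout minus wild type, were 0.46 for Psme1, 0.40 for Psmg4, -0.26 for Psmd9, -0.45 for Psmb3 and -0.04 for Psmd4. A match of letters is a description and not a binding site.

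No member passed the adjusted threshold of 0.05 in limma, the linear model fitted across all 22180 genes, where 0% of all genes passed. At an unadjusted p under 0.05, 5 members were higher in the knockout and 2 were lower, that is 10.2% and 4.08% of 49, against 4.74% and 5.51% of all genes tested. In either direction this was 14.3% of members and 10.3% of all genes. After quantile normalization the split over all genes was 5.37% higher and 3.82% lower. Leaving out wild-type replicate 3 gave 8 higher members, whereas leaving out wild-type replicate 2 or knockout replicate 3 gave 3, and the number of lower members was 0 without the intensity trend of limma or with the replicate number as a block. It was also 0 when wild-type replicate 2 or any one of the knockout arrays was left out, and 1 when wild-type replicate 3 was. The 5 were Psme1, Psmb10, Psmg4, Psmg3 and Psma8, and the 2 were Psmb1 and Psmc4. The knockout arrays lay wholly above the wild-type arrays for 9 members, or 18.4% against 7.75% of all genes, and wholly below for 2, or 4.08% against 8.37%, where 16.1% of all genes were apart in either direction. Psmc3ip is among the 9, and of the 47 proteasome genes 8, or 17%, lay wholly above. For Psma7, Psmd14 and Psmd6 the gap between the groups was only 0.0044, 0.012 and 0.016. All differences of members were small, from 0.734-fold to 1.43-fold. Of the 49, 31 were positive, or 63.3%, against 50% of all genes. The median of the members was 0.10 on the log2 scale, against 0.00 over all genes. It was 0.03 over the genes whose mean signal lies in the range of the members, a wide range that holds 17176 of 22180 genes. Of 10 classes by mean signal, the brightest holds 32 of the 49 members, and its median over all genes was 0.05. The shares of all genes count genes of every brightness, and 42 of the 49 members lay in the 2 brightest of 10 signal classes.

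The interferon-induced subunits gave the members with the lowest p, but not as a set of 5. Psme1 and Psmb10 were higher at an unadjusted p under 0.05, Psme2, Psmb8 and Psmb9 were neither higher nor lower by that threshold, and 0 of 5 passed the adjusted one. The 2 higher genes are 40% of 5 genes chosen with results known, against 4.74% of all genes. The median log2 difference was 0.26 over the 5 genes, with a range of -0.06 to 0.46. Leaving out knockout replicate 1 gave a median of 0.079 and leaving out knockout replicate 2 gave 0.40.

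Psme1 encodes the alpha subunit of PA28, the ring that opens the barrel without ATP. Its log2 values were 8.67, 8.66 and 8.93 in the wild-type arrays of replicates 1 to 3 and 9.19, 9.33 and 9.11 in the knockout arrays. All knockout arrays lay above all wild-type arrays, with a gap between 8.93 and 9.11. The log2 difference was 0.46 ± 0.12 (SE), or 1.37-fold with a 95% interval of 1.14 to 1.66, at an adjusted p of 0.342 in limma. Psme1 kept an unadjusted p under 0.05 in all 14 alternatives, with a difference of 0.39 to 0.55.

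Psmb10 encodes the induced replacement of the trypsin-like site. It measured 8.71, 8.74 and 8.87 in the wild type and 9.27, 8.99 and 9.25 in the knockout, again with no overlap, and knockout replicate 2 was the nearest to the wild type. The log2 difference was 0.40 ± 0.12 (SE), or 1.32-fold with a 95% interval of 1.09 to 1.59, at an adjusted p of 0.356 in limma. Its unadjusted p was under 0.05 in all 14 alternatives as well, with a difference of 0.33 to 0.49.

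Psme2, the beta subunit of PA28 that assembles with Psme1, read 6.66, 6.79 and 6.64 in the wild type. The knockout arrays read 7.40, 6.42 and 7.05, so that 2 of them lay above every wild-type array and 1 below. The log2 difference was 0.26 ± 0.23 (SE), with a 95% interval of -0.26 to 0.78. It was 0.53 without knockout replicate 2 and 0.04 without knockout replicate 1. A further probe set that lists Psme2 together with 9930111J21Rik1 and 9930111J21Rik2 gave -0.21 ± 0.16 (SE), and the mouse genome has a near copy of the gene, Psme2b, so probes may be shared between copies.

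Psmb8 and Psmb9, which encode the induced replacements of the chymotrypsin-like and caspase-like sites, lie in the MHC locus beside the peptide transporter genes. Psmb8 measured 8.42, 8.67 and 8.66 in the wild type and 8.68, 8.79 and 8.53 in the knockout, and the groups overlapped. Its log2 difference was 0.09 ± 0.13 (SE), with a 95% interval of -0.20 to 0.37, which in fold is 0.871 to 1.29. Psmb9 measured 9.996, 9.83 and 10.71 in the wild type and 10.16, 10.07 and 10.12 in the knockout. Wild-type replicate 3 stood 0.55 above the highest of the other 5 arrays, while the knockout arrays spread over 0.09. The log2 difference was -0.06 ± 0.19 (SE) and turned to 0.20 without wild-type replicate 3. The same array had the highest summed signal of the B and plasma cell markers (9 of 10 measured), 11.17 on the log2 scale, where the other wild-type arrays had 9.38 and 9.75 and the knockout arrays 10.38 to 10.72. The part of such cells in the Psmb9 value was not tested.

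**Figure D1:**
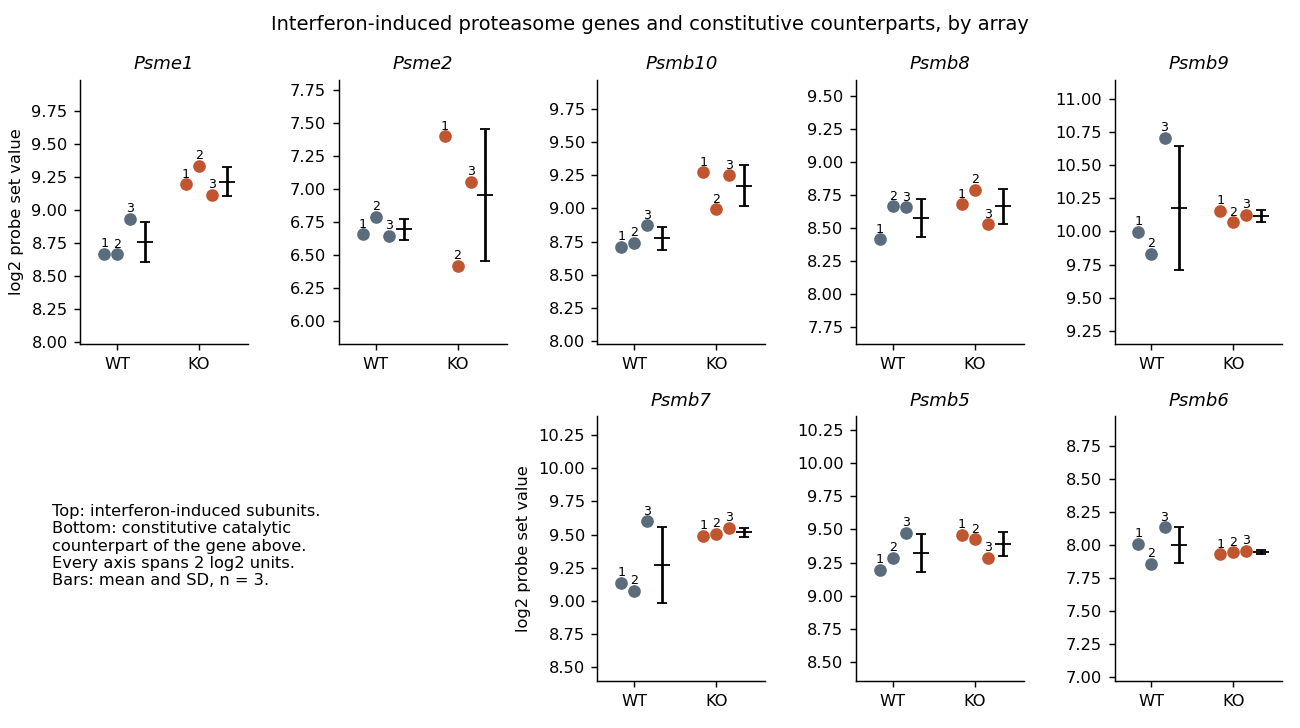
Log2 probe set values (y axis, each panel spanning 2 log2 units) of the 5 interferon-induced genes (top) and the 3 constitutive catalytic genes (bottom, each under its induced counterpart) in 3 wild-type (WT) and 3 knockout (KO) arrays. Digits give the replicate and bars the mean and SD. The groups are apart for Psme1 and Psmb10 and overlap in the other 6 panels, and wild-type replicate 3 is high for Psmb9 and Psmb7.

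The constitutive catalytic genes, which the induced subunits displace during assembly, were not on the lower side as a group. Psmb7, the trypsin-like site, measured 9.14, 9.08 and 9.60 in the wild type and 9.49, 9.51 and 9.55 in the knockout. Wild-type replicates 1 and 2 lay below the knockout arrays and replicate 3 above them. Its log2 difference was 0.25 ± 0.14 (SE), and 0.41 without wild-type replicate 3. Psmb5, the chymotrypsin-like site, measured 9.20, 9.29 and 9.48 in the wild type and 9.46, 9.43 and 9.28 in the knockout, with a difference of 0.07 ± 0.11 (SE). Psmb6, the caspase-like site, measured 8.01, 7.86 and 8.14 in the wild type and 7.93, 7.95 and 7.96 in the knockout, with a difference of -0.06 ± 0.13 (SE). The knockout values of Psmb6 all fell within the wild-type range.

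Each induced subunit was then set against the subunit it replaces, as a difference between 2 log2 differences computed within arrays. Psmb10 exceeded Psmb7 by 0.15 ± 0.15 (SE), Psmb8 exceeded Psmb5 by 0.02 ± 0.07 (SE), and Psmb9 minus Psmb6 gave -0.00 ± 0.20 (SE). An exact two-sided permutation test gave p = 0.4, 0.7 and 1 for these 3 pairs and an adjusted p of 1 for each. With 3 arrays a group the smallest p this permutation test allows is 0.1, so it could not have reached the threshold, and its p-values do not show whether a pair shifted.

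The constitutive core was close to level in its median. Among its 13 measured genes, 5 had positive and 8 negative differences, with a median of -0.06. Of the 13, 12 did not reach an unadjusted p under 0.05, and the 1 that did was 7.69%, against 10.3% of all genes. The median was -0.10 after quantile normalization or cyclic loess, and turned positive, up to 0.051, when wild-type replicate 2 or 3 or knockout replicate 2 was left out. The exception was Psmb1, a beta subunit without a protease site. It measured 9.30, 9.54 and 9.39 in the wild type and 9.05, 9.22 and 9.19 in the knockout, with all knockout arrays below, and its log2 difference was -0.26 ± 0.11 (SE, adjusted p = 0.476 in limma). Psmb3, another such subunit, read 5.54, 5.20 and 4.69 against 4.84, 4.35 and 4.90, with overlap and a difference of -0.45 ± 0.24 (SE), which moved to -0.67 without wild-type replicate 3 and to -0.25 without wild-type replicate 1. Psmb4 and Psmb2 had -0.10 ± 0.10 and 0.16 ± 0.16 (SE), and Psmb2 had 0.36 without wild-type replicate 3.

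In the alpha ring, which gates the entry to the barrel, 0 of 6 measured genes reached an unadjusted p under 0.05. This compares with 10.3% of all genes, and the median of the ring was -0.05. The tightest estimate was Psma6, at -0.00 ± 0.09 (SE), with 9.90, 10.11 and 10.05 in the wild type and 9.95, 10.03 and 10.08 in the knockout. Its 95% interval of 0.862-fold to 1.16-fold was the narrowest of the 49 members. The difference of Psma6 was -0.10 after quantile normalization and -0.08 after cyclic loess. Psma7 lay at 9.60, 9.87 and 9.83 in the wild type and 9.88, 9.93 and 9.98 in the knockout, where the groups were apart by only 0.0044, with a difference of 0.16 ± 0.10 (SE). Psma3, Psma1 and Psma2 had 0.11, -0.09 and -0.14. Psma5 read 2.74, 3.38 and 3.48 in the wild type and 2.82, 2.92 and 2.90 in the knockout, at percentile 21.65 of all genes by mean signal, and its second probe set was as dim. Since the core cannot be built without this subunit, these probe sets carry little information on it, and its difference of -0.32 ± 0.20 (SE) lies near the bottom of the signal range.

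The cap genes had mostly small positive differences. In the ATPase ring, 4 of 6 were positive with a median of 0.12. Psmc4, an ATPase of the base, was on the other side. It measured 8.72, 8.75 and 8.84 in the wild type and 8.57, 8.41 and 8.51 in the knockout, with no overlap and a log2 difference of -0.27 ± 0.11 (SE, adjusted p = 0.458 in limma). The other ATPase genes lay between -0.06 for Psmc3 and 0.20 for Psmc1. Psmc5 had 0.15 ± 0.11 (SE) with groups apart by 0.029, between 8.73 and 8.76. Psmc2 had a second probe set, which gave 0.09 beside the 0.10 of the brighter one.

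Among the 11 non-ATPase genes, 9 were positive, with a median of 0.11. An unadjusted p under 0.05 was reached by 0 of them, against 10.3% of all genes. Psmd12, a lid subunit, had the lowest p of this group, at 8.19, 7.88 and 7.99 in the wild type and 8.11, 8.38 and 8.47 in the knockout, a difference of 0.30 ± 0.14 (SE) with overlap through wild-type replicate 1. Psmd14, which encodes the deubiquitinase of the lid, measured 7.25, 7.33 and 7.47 against 7.63, 7.49 and 7.67, apart by 0.012, with a difference of 0.24 ± 0.13 (SE). Psmd7, its partner in the lid, had the largest value of the group, 0.38 ± 0.23 (SE), and this rested on knockout replicate 3 at 9.16, where the other 5 arrays lay between 8.06 and 8.34. Without that array Psmd7 had 0.08. Psmd4, a ubiquitin receptor, spread least, from 8.04 to 8.12 over all 6 arrays, with a difference of -0.04 ± 0.11 (SE), the SE being larger than this spread because limma moderates it towards that of other genes. Psmd2 and Psmd1, the large scaffold subunits, had -0.04 and 0.03, and the remaining 5 genes lay between 0.00 and 0.17. Without knockout replicate 3 the median of the 17 cap genes went from 0.11 to 0.03, and after quantile normalization or cyclic loess it was 0.07.

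**Figure D2:**
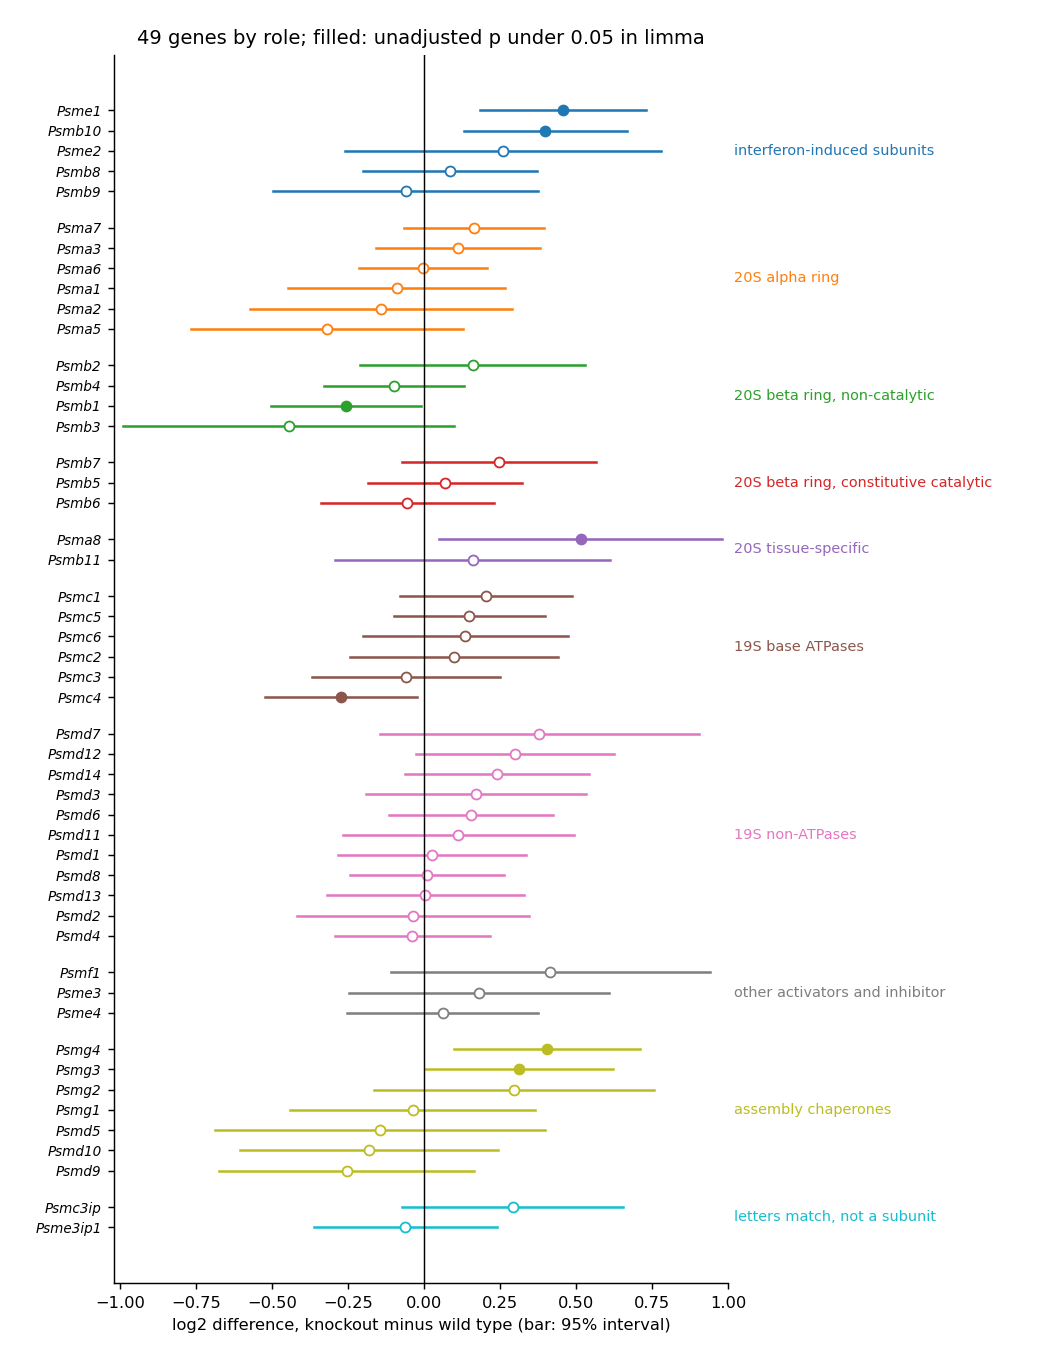
Log2 difference, knockout minus wild type (x axis), of all 49 genes grouped by role, with the 95% interval from limma as a bar. Filled points mark an unadjusted p under 0.05, which holds for Psme1, Psmb10, Psmb1, Psma8, Psmc4, Psmg4 and Psmg3, and the other 42 intervals include 0.

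The assembly chaperones, which bring the rings together and leave the finished particle, had both directions. Psmg4, a chaperone of the alpha ring, measured 7.03, 7.08 and 7.15 in the wild type and 7.61, 7.36 and 7.49 in the knockout. The groups were apart, the difference was 0.40 ± 0.14 (SE, adjusted p = 0.385 in limma), and the unadjusted p stayed under 0.05 in 13 of 14 alternatives, the exception being without knockout replicate 1 (0.34). Psmg3, its partner, measured 6.45, 6.60 and 6.62 against 6.86, 6.91 and 6.85, also apart, with a difference of 0.31 ± 0.14 (SE, adjusted p = 0.486 in limma). Its unadjusted p was just under 0.05 and stayed there in 5 of 14 alternatives. Psmg1 and Psmg2 form the other pair for the same ring. Psmg1 had -0.04 and Psmg2 0.29, the latter with knockout replicate 3 at 8.44 and the other arrays at 7.46 to 7.88, and 0.07 without it. The chaperones of the ATPase base, Psmd5, Psmd9 and Psmd10, had -0.15, -0.26 and -0.18, with overlap in each. The median over the 7 chaperones was -0.04.

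The other regulators gave small values with wide errors. Psme3 encodes PA28 gamma, a nuclear relative of PA28 that interferon does not induce, and had 0.18 ± 0.19 (SE), or 0.39 without wild-type replicate 3. Psme4, the activator PA200, had 0.06 ± 0.14 (SE). Psmf1, the inhibitor PI31, read 5.55, 4.81 and 5.72 in the wild type and 5.86, 5.69 and 5.78 in the knockout, a difference of 0.42 ± 0.23 (SE) that was 0.14 without wild-type replicate 2. Of the tissue-specific core genes, Psma8, an alpha subunit of the testis, measured 5.08, 5.14 and 5.41 in the wild type and 5.37, 6.08 and 5.72 in the knockout, with a small overlap and a difference of 0.51 ± 0.21 (SE, adjusted p = 0.456 in limma), the largest of all members. It was 0.34 without knockout replicate 2. Psmb11, a catalytic subunit of the thymic cortex, lay at percentile 36.86 of mean signal with 0.16 ± 0.20 (SE). The genes that share only the letters, Psmc3ip and Psme3ip1, had 0.29 and -0.06, with groups apart by 0.0465 for Psmc3ip and overlapping for Psme3ip1.

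The groups of subunits differed in how they varied over arrays. The mean log2 value of the 5 interferon-induced genes, taken relative to its wild-type mean, was -0.11, -0.06 and 0.17 in the wild-type arrays and 0.34, 0.12 and 0.22 in the knockout arrays. Wild-type replicate 3 lay above knockout replicate 2, so the groups overlapped for this mean. The constitutive core had -0.09, 0.02 and 0.08 in the wild type and -0.02, -0.13 and -0.01 in the knockout, and each knockout value fell inside or below the wild-type range. The cap had -0.01, -0.03 and 0.04 against 0.03, 0.06 and 0.19, where knockout replicate 3 stood apart from the other 5 arrays. The same array was highest for the chaperones, at 0.25. No test was applied to these means, since the members were chosen with results known.

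**Figure D3:**
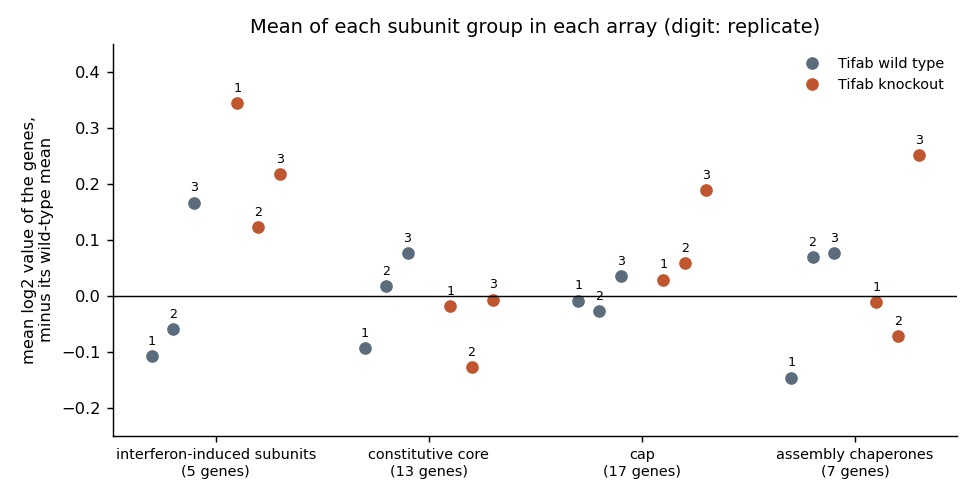
Mean log2 value of the genes of each group, minus the mean of the wild-type arrays (y axis), in 3 wild-type and 3 knockout arrays, with the replicate number above each point. The interferon-induced genes range from -0.11 to 0.34, the constitutive core from -0.13 to 0.08, and knockout replicate 3 is the highest array for the cap and the chaperones.

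Genes that act beside the proteasome were followed in 3 lists. The other proteasome pathway genes cover shuttle factors, deubiquitinases, the transcription factors Nfe2l1 and Nfe2l2 and the peptidases after the proteasome. Of these, 26 of 35 were measured and 0 reached an unadjusted p under 0.05, against 10.3% of all genes. Their median was 0.04. Lap3, an interferon-inducible aminopeptidase that trims peptides, had 0.49 ± 0.22 (SE) and Ubqln4, a shuttle factor, 0.42 ± 0.19 (SE), both with overlap. Npepps, another aminopeptidase, and Zfand2a, a stress-induced partner of the proteasome, each had -0.28 with the knockout arrays wholly below. Over the list this held for 3 of 26 genes, or 11.5%, against 8.37% of all genes. The knockout arrays lay wholly above for 0, against 7.75% of all genes. Pomp, the chaperone that matures the core, had 0.10 ± 0.12 (SE).

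Of 17 genes for antigen processing and MHC class I, 13 were measured, 2 were higher at an unadjusted p under 0.05 (15.4% against 4.74% of all genes) and 0 lower, with a median of 0.10. Pdia3, an oxidoreductase of the peptide-loading complex, measured 8.71 in the wild type and 9.17 in the knockout, a difference of 0.46 ± 0.14 (SE, adjusted p = 0.356 in limma) with groups apart, and kept its unadjusted p under 0.05 in all 14 alternatives. H2-T23, a nonclassical MHC class I gene, had 0.43 ± 0.16 (SE). H2-K1 had -0.15 ± 0.10 (SE) and H2-Q4 -0.59 ± 0.30 (SE). H2-Q4 has 2 probe sets, and its difference ran from -0.63 to -0.37 under the other settings of the processing. MHC class I genes are near copies of each other, so their probes may be shared. The transporter genes Tap1 and Tap2, neighbours of Psmb8 and Psmb9, had 0.11 ± 0.13 and 0.08 ± 0.17 (SE), and B2m 0.03 ± 0.06 (SE).

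Of 15 genes that receive or limit the interferon signal, 14 were measured, with a median of 0.12. Against 10.3% of all genes, 7.14% of the measured list, or 1 gene, reached an unadjusted p under 0.05. This was Socs1, the feedback inhibitor of JAK kinases, at 5.94 in the wild type and 5.28 in the knockout, a difference of -0.66 ± 0.15 (SE, adjusted p = 0.297 in limma) with groups apart. Its unadjusted p was under 0.05 in all 14 alternatives. Irf1, which encodes the factor that activates the Psmb9 and Tap1 promoter, had 0.29 ± 0.17 (SE), and the receptor genes Ifnar1 and Ifnar2 had 0.26 and 0.28, each with overlap.

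Mature blood cells carry much immunoproteasome, so their markers were set beside these values. In bulk RNA, fewer cells of a type and less RNA per cell cannot be told apart. The log2 of the summed signal ranged from 8.82 to 9.25 in the wild type and 9.10 to 9.46 in the knockout for macrophage and monocyte markers (10 of 10 measured), and from 10.66 to 11.02 and 10.91 to 11.08 for dendritic cell markers (9 of 10). It was 9.81 to 10.25 and 9.93 to 9.95 for T and NK cell markers (9 of 10), 12.52 to 12.74 and 12.50 to 12.77 for neutrophil markers (10 of 10), and 7.85 to 8.98 and 8.50 to 8.70 for the 4 of 8 erythroid markers measured. The groups overlapped for the summed signal of each list, the B and plasma cell markers included. Such a sum follows its brightest genes and says little about the dimmer ones. Nkg7, at 9.77 in the wild type and 9.73 in the knockout, made up most of the T and NK sum. Of those 9 genes, 5 lay under the 40th percentile of mean signal. H2-Ab1, at 9.73 and 9.87, was the brightest dendritic cell marker, and Flt3 is also in the list for the LSK fraction. Single markers were apart: among the macrophage markers C1qa had 0.52 ± 0.17 (SE), C1qb -0.51 ± 0.16 and Vcam1 -0.74 ± 0.23, and among the neutrophil markers Mmp8 had -0.85 ± 0.24. These 3 of 10 macrophage markers and 1 of 10 neutrophil markers had an unadjusted p under 0.05. That is 30% and 10%, against 10.3% of all genes, and groups were apart for 16.1% of all genes. In either list 0 passed the adjusted threshold. Among defining markers, Adgre1, Klrb1c and Vpreb1 had the lowest means of the macrophage, the T and NK and the B cell lists, at 3.40, 3.21 and 3.27. The part of these cells in the Psme1 and Psmb10 values was not tested.

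The differences of the named members were recomputed under 14 alternatives. Across them Psme1, Psmb10, Psmg4, Psmg3 and Psma8 stayed positive and Psmb1 and Psmc4 negative. Psmb1 and Psmc4 each kept an unadjusted p under 0.05 in 7 of 14 and Psma8 in 10 of 14.

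**Figure D4:**
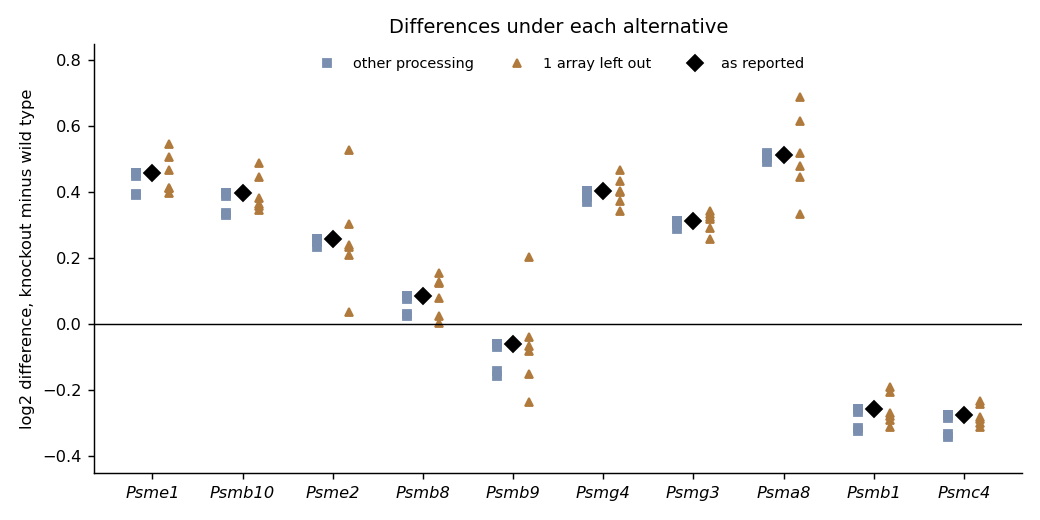
Log2 difference, knockout minus wild type (y axis), of 10 genes as reported (diamonds), under 8 other settings of the processing (squares) and with 1 array left out (triangles). Psme1 and Psmb10 stay between 0.33 and 0.55, whereas Psme2 spans 0.04 to 0.53 and Psmb9 changes sign without wild-type replicate 3.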

How the data were processed

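The authors deposited log2 probe set values for 6 arrays, 41345 probe sets each, made with Affymetrix Expression Console per the submitters' processing notes; the labels state no background correction, normalization or summary method. The array medians lie between 4.05 and 4.10, so no further scaling was applied, and a change in total RNA per cell would not show. The number of arrays limits the precision. Gene symbols come from GEO's annotation of the platform, and promoter sequences come from RefSeq (GRCm38.p6).

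Groups were compared in limma 3.58.1 (R 4.3.3; lmFit, eBayes with intensity trend) by genotype alone. Tests were two-sided, and p-values were adjusted by Benjamini-Hochberg across 22180 genes. The script was tested on simulated data. All members could be named; the 5 induced and 3 constitutive catalytic genes have every value, other classes those with an unadjusted p under 0.05 or the lowest p, and further lists up to 4 genes. Members and list genes named beyond that were chosen after their values were seen. The members and lists were chosen with earlier results of these data known. The labels give separate mice per sample. Alternatives changed the moderation, normalization, dim-gene filter (40th percentile), probe set rule and replicate block, or left out 1 array.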

Additional observations from a re-analysis of the deposited data

How the results depend on the processing

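No member passed the adjusted threshold in limma under any of 14 alternatives. The count of members higher at an unadjusted p under 0.05 was 5 and ran from 3 to 8 with 1 array left out: 3 without wild-type replicate 2 or knockout replicate 3 and 8 without wild-type replicate 3. The count of lower members was 2 and, with 1 array left out, ran from 0 to 3, with 0 in 4 of these 6 fits; it was also 0 without the intensity trend. With 1 array left out, the median of the interferon-induced genes ran from 0.079 (without knockout replicate 1) to 0.40 (without knockout replicate 2), that of the constitutive core from -0.063 to 0.051 (without knockout replicate 2) and that of the cap from 0.028 (without knockout replicate 3) to 0.14; the cause was not tested. The core median was -0.10 after quantile normalization and after cyclic loess, and the cap median was 0.07 after each of them. With the replicate number as a block, 4 members were higher and 0 lower. Same-numbered arrays did not deviate together (correlations 0.02, -0.03 and -0.09), which cannot settle whether the mice were paired. The labels do not say that the numbers pair mice. The difference kept its direction in all alternatives for 34 of 49 members; 15 small ones turned. Psmd1 had -0.022 after quantile normalization and -0.021 after cyclic loess, Psmd13 -0.018 after cyclic loess and -0.00526 after median centring, and Psmd8 -0.061 after quantile normalization, -0.062 after cyclic loess and -0.00103 after median centring. Signal limits Psma5 and Psmb11, which the filter on dim genes leaves out. With 1 array left out, the range was -0.19 to 0.058 for Psma1, -0.30 to 0.098 for Psma2, -0.061 to 0.041 for Psma6, -0.017 to 0.32 for Psmb11, -0.13 to 0.011 for Psmb6, -0.23 to 0.20 for Psmb9, -0.072 to 0.19 for Psmc2, -0.11 to 0.021 for Psmc3, -0.031 to 0.12 for Psmd1, -0.023 to 0.26 for Psmd11, -0.047 to 0.073 for Psmd13, -0.22 to 0.080 for Psmd2, -0.38 to 0.059 for Psmd5, -0.094 to 0.075 for Psmd8, and -0.16 to 0.12 for Psmg1.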
